A study of Mus musculus with 8 samples.

Results

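The IgG pull-down is the control immunoprecipitate of a study of NONO, an RNA-binding protein of paraspeckles, in mouse liver nuclei. Its members here were all 55946 peaks that the authors called in the IgG immunoprecipitate over its own input, out of 206501 peaks in the 4 lists of the series. The other 3 lists come from immunoprecipitates with an antibody to NONO and hold 38209 peaks (fasted), 61737 peaks (2 h re-fed) and 50609 peaks (10 h re-fed).

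All mice were wild type C57BL/6 aged 14 weeks, under a cycle of 12 h light and 12 h dark with food given at night only. The NONO libraries and their inputs came from fasted liver at zeitgeber time 10, from liver re-fed for 2 h at zeitgeber time 14 and from liver re-fed for 10 h at zeitgeber time 22. For IgG and its input the labels gave neither a feeding state nor a time, so any difference from the NONO lists cannot be told apart from one of feeding state or time of day. Each of the 8 libraries pooled 2 experiments and each group had 1 library, so no p-value was computed and there was no replicate error. Intervals are 95% exact intervals, Clopper-Pearson for shares and from binomial order statistics for medians, and cover counting error only.

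Beads coated with IgG of no stated target bring down RNA that sticks to beads, tubes or antibody, and the RNA of abundant complexes. In nuclei the abundant RNAs are precursor transcripts, made mostly of intron sequence, and small structured RNAs. Among the latter, 7SK holds the elongation factor P-TEFb inactive through HEXIM proteins, Rpph1 is the RNA of RNase P, which matures transfer RNAs, and Rmrp is the RNA of RNase MRP, which acts in ribosomal RNA processing. A peak here is a stretch of genome where IgG tags exceeded input tags at least 2-fold and reached 8 tags (11 in the NONO lists). Normalised tags are tags per 10000000 tags of the library.

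A single RNA led the list. The peak over Rn7sk, the 7SK gene (mm10, chr9:78175303-78175633, minus strand, a non-coding exon), held 3748429.8 normalised tags at 3.96-fold over input. It took 37.5% of the IgG library and 9.46% of its input. The first 241 bases of 7SK are shown because this RNA carries the largest part of the signal and because its copies elsewhere in the genome also carried peaks. Capitals in 7SK mark GATC, the same on both strands, which occurs 3 times, from bases 13, 42 and 64, and in 30% of 6088 annotated small RNA transcripts; the first stretch of 7SK is known as the HEXIM-binding hairpin. Below it stands the part of 1 copy, Gm25844, that aligns to bases 2 to 247 of 7SK, so its end runs past the stretch of 7SK shown. Capitals in Gm25844 mark the 23 bases that differ from 7SK or are inserted (missing bases are not marked). Sequences are transcripts of GENCODE M21, 5′ to 3′.
7SK: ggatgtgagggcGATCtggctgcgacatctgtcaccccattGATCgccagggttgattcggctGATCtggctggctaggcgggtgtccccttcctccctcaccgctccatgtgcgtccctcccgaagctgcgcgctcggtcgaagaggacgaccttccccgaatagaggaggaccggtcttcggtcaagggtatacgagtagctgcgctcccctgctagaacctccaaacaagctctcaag
Gm25844: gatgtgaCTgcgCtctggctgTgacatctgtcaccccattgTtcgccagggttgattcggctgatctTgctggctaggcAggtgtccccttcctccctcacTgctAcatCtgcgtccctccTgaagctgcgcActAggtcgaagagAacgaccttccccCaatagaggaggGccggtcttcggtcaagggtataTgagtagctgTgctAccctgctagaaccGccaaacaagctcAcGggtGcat

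IgG peaks also lay over copies of 7SK. Of 562 genes annotated as miscellaneous RNA, 41 lay under an IgG peak (7.30%). Excluding Rn7sk itself, 28 of these genes aligned to 7SK at 80% identity or more over at least 100 columns, a limit chosen after values were seen. An IgG peak lay over 13 of the 28 copies (46.4%), against 27 of the 533 other genes (5.07%). The share depended on the limit: it was 19 of 125 at 70% identity (15.2%), 17 of 62 at 75% (27.4%), 11 of 17 at 85% (64.7%) and 4 of 9 at 90% (44.4%). In the NONO lists 0 (fasted), 3 (2 h) and 2 (10 h) of the 28 copies had a peak, against 15, 27 and 17 of the 533 other genes. The copy at Gm25844 (chr4:111988650-111988958) had 16.8 normalised tags, from 32 IgG tags, at 16.63-fold, and Gm26323 had 14.7 at 14.56-fold, each over 2 input tags and met by no NONO list. Gm24447, which shares a run of 241 bases with 7SK, had 7.9 at 7.80-fold, whereas Gm26315, with a run of 235 bases, had no peak. Tags of 7SK itself that were placed at a copy cannot be told apart from tags of the copy, so the counts at copies are uncertain.

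The RNAs of RNase P and RNase MRP had the 2nd and 5th most tags and likewise lay outside the NONO lists. The peak over Rpph1 (chr14:50807449-50807767, minus strand) held 81661.8 normalised tags at 5.20-fold, 0.817% of the IgG library against 0.157% of the input, and also covers the ends of Ccnb1ip1 and Parp2. That over Rmrp (chr4:43492788-43493058, minus strand) held 12953.9 at 3.23-fold, 0.13% of the library against 0.0401% of the input. No NONO list had a peak over either gene. Both sequences are shown, Rpph1 as bases 1 to 300 of 319 and Rmrp whole, with their longest shared run, 9 bases, in capitals. That run occurs in 4 of the 6088 small RNA transcripts, and the longest runs shared with 7SK are 8 bases in Rpph1 and 7 in Rmrp.
Rpph1: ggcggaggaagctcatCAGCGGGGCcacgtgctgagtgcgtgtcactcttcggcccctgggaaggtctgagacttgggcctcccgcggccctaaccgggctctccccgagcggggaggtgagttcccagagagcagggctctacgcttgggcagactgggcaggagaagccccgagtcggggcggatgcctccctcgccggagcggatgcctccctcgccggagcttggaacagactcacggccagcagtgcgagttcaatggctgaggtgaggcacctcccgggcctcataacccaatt
Rmrp: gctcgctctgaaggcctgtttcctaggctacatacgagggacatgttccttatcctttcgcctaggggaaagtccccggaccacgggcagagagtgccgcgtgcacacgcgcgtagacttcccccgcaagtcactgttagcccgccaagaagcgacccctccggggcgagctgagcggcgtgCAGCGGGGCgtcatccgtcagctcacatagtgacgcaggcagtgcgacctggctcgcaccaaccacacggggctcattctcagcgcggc

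Other housekeeping small RNAs were low or without a peak. Terc, the telomerase RNA, had 52.1 normalised tags at 8.58-fold over 11.5 scaled input tags. The signal recognition particle RNAs Rn7s2 and Rn7s1 had 56.3 at 2.42-fold and 23.7 at 2.46-fold. Rny1 and Rny3, the Y RNAs of Ro particles, had no peak. In all, 6 of 15 matched members of the housekeeping small RNA list carried an IgG peak (40%, against 23.8% of all genes). Each of those 6 peaks was met by no NONO list, against 38.5% of all IgG peaks. Small nuclear RNA genes were sparse, with 41 of 1383 under an IgG peak (2.96%, against 23.8% of all genes). By family (80% identity over 50 columns), 2 of 81 U1-like, 2 of 27 U2-like and 18 of 626 U6-like genes lay under one. For U5-like, U7-like, U11-like and U12-like genes the counts were 0 of 11, 0 of 53, 0 of 5 and 0 of 4. Of 576 genes assigned to none of these families, 19 did. Of the 41 small nuclear RNA genes with a peak in all, 35 peaks also covered a protein-coding gene, and tags of the gene around them cannot be told apart from theirs. Of 1507 small nucleolar RNA genes 67 had a peak (4.45%, against 23.8% of all genes), led by Gm25617 within Gsk3b (1786.2 normalised tags at 3.39-fold). Scarna2, a guide RNA of Cajal bodies that lies in no other gene, had 868.6 at 2.57-fold and met 2 NONO lists. Of 2202 microRNA genes 76 had a peak (3.45%, again against 23.8%). The leading one, of 27692 bp, ran across Mir30a and Mir30c-2 with 2233.1 at 2.39-fold and met all 3 NONO lists. It thus covers far more than the hairpins.

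**Figure D1:**
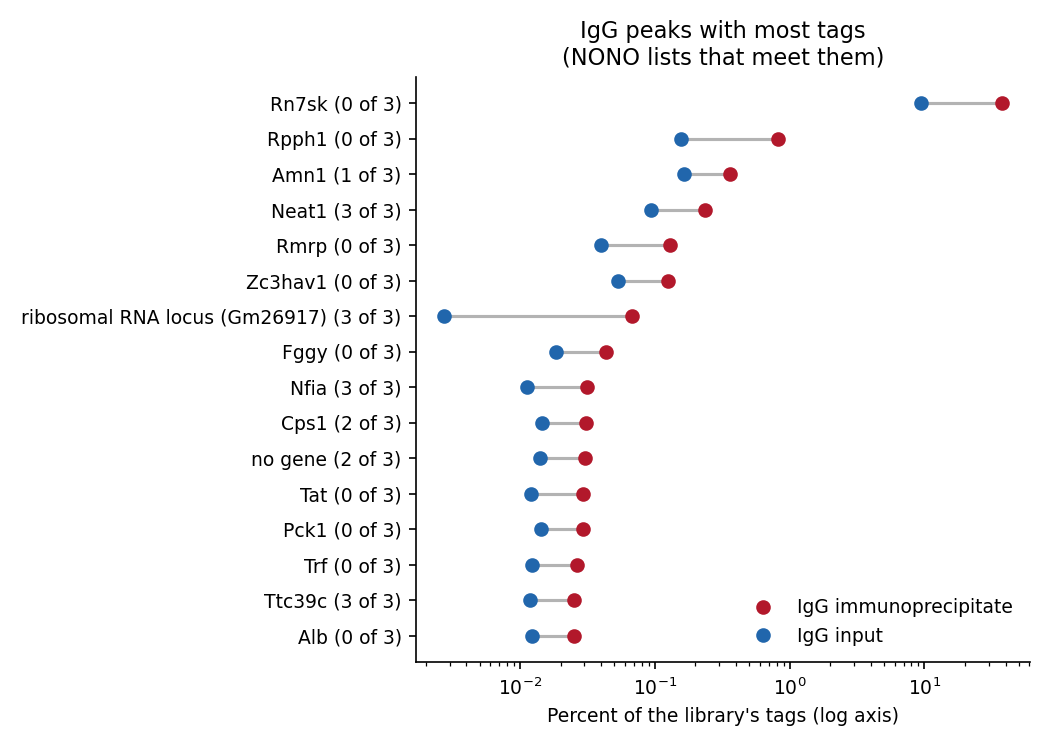
Percent of library tags (log axis) in the IgG immunoprecipitate (red) and in its input (blue) for the 16 IgG peaks with most tags, with the number of NONO lists that meet each. Rn7sk stands at 37.5% against 9.46%, and the ribosomal RNA locus has the widest gap, 0.0674% against 0.00273%.

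The Rn7sk peak also sets the scale of every other fold, since the authors scaled the input to the whole IgG library. Leaving its tags out of both libraries multiplies each other fold by 1.45, which moves the median fold of the list from 4.16 to 6.03. Peaks without Rn7sk held 15.7% of IgG tags and 5.37% of input tags, or 25.2% of the IgG tags outside Rn7sk. Only 64 peaks reached 1000 normalised tags, and they held 17.2% of the tags in peaks other than Rn7sk. Peaks under 20 IgG tags made up 45.9% of the list.

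Other peaks with many tags lay over Neat1 and in introns of protein-coding genes. Those in Amn1 and over Neat1 held more than Rmrp. The peak of 22033 bp over Neat1, the architectural RNA of paraspeckles, held 23646.8 normalised tags at 2.52-fold and met all 3 NONO lists. The largest overlapping NONO peaks had folds of 4.33 (fasted), 3.3 (2 h) and 2.51 (10 h). Leaving out Rn7sk tags puts the IgG fold at 3.65, and NONO folds were not rescaled. Single introns of Amn1 (chr6:149167789-149168665, 35848.5 at 2.17-fold), Zc3hav1, the gene of an antiviral zinc finger protein (chr6:38337628-38338407, 12457.5 at 2.34-fold), and Fggy (chr4:95819522-95820927, 4341.5 at 2.33-fold) carried narrow peaks with more tags than any peak over Alb. What transcript lies under these 3 peaks was not tested. Nfia, a transcription factor gene, carried the widest peak of the list, 49884 bp with 3106.5 at 2.75-fold. Cps1, the first enzyme of the urea cycle, had 3103.8 at 2.14-fold, and an intergenic peak beside Amn1 (chr6:149224798-149225548) 3040.1 at 2.16-fold.

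A peak over the ribosomal RNA locus (chr17:39843125-39848963, with Gm26917, Gm42418, CT010467.1 and AY036118) had the highest fold among peaks with at least 2 input tags. It held 6738.9 normalised tags at 24.65-fold, or 35.7-fold with Rn7sk tags left out, and met all 3 NONO lists. Their largest overlapping peaks, not rescaled, held 510.6 at 3.13-fold (fasted), 3014.1 at 27.02-fold (2 h) and 2118.2 at 7.14-fold (10 h). The library kit removes ribosomal RNA, and whether removal differed between immunoprecipitate and input was not tested. The next folds came from few tags. Plcxd3 had 54 IgG tags over 2.9 scaled input tags at 18.71-fold, and peaks over Tmem131, Msrb3, E2f3, an intergenic site (chr8:3754198-3754698), Gm25844 and Gm24139 lay between 16.63-fold and 18.19-fold, each over 2 input tags.

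The long non-coding RNAs listed were unevenly present. Most are known to stay in the nucleus, while Gas5 and H19 are also found in the cytoplasm, and GENCODE annotates Snhg11 as protein-coding. Of 15 matched, 7 carried an IgG peak (46.7%, against 23.8% of all genes), with 41 peaks in all, of which 19 were met by no NONO list (46.3%, against 38.5% of all IgG peaks). Kcnq1ot1, an imprinted silencing RNA, had 15 IgG peaks beside 15 (fasted), 16 (2 h) and 14 (10 h) NONO peaks, the largest with 188.5 normalised tags at 3.54-fold. Airn, another imprinted silencing RNA, had 14, of which 11 were met by none. Firre had 5 and Snhg14 3. Snhg11 (203.7 at 3.22-fold) and Gas5 (107.9 at 2.13-fold) each had 1, met by none. H19, Malat1, Xist, Meg3 and Rian had no IgG peak. Since peaks were called on both strands together, Kcnq1ot1 and Airn, which overlap genes on the other strand, cannot be told apart from those genes.

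By position, IgG peaks were mostly intronic. Midpoints fell in introns for 47944 peaks (85.7%, interval 85.4 to 86), in promoters, taken as 1000 bp upstream of a transcript start, for 3614 (6.46%, 6.26 to 6.67), between genes for 2728 (4.88%, 4.7 to 5.06), in 3′ untranslated regions for 599 (1.07%), in non-coding exons for 457 (0.817%), in coding exons for 443 (0.792%) and in 5′ untranslated regions for 161 (0.288%). Leaving out intergenic peaks, introns held 90.1% of peaks and 87.4% of annotated bases, and coding exons 0.832% of peaks and 2.98% of bases. The 3 NONO lists had a like intron share, 86.4% (fasted), 85.5% (2 h) and 85.4% (10 h), and a higher share in 3′ untranslated regions, 2.04%, 1.73% and 2.27%. By tags the picture differs. Non-coding exons took 71.5% of tags in IgG peaks with Rn7sk and 3.76% without it, and introns took 22.6% and 76.3%. The 5′ untranslated regions took 1.62% and 5.46%. That class includes the peak over Rpph1, a non-coding RNA, so the 3.76% leaves Rpph1 out. The median fold was 4.16 in introns and 3.29 in coding exons (interval 3.12 to 3.53), where median input was also higher, 10.6 against 4.8 scaled tags.

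At least 1 IgG peak lay over 9110 of 38214 genes (23.8%), among them 7604 of 21951 protein-coding genes (34.6%) and 1266 of 10155 long non-coding genes (12.5%). The share rose with gene length, from 6.41% of protein-coding genes under 5 kb to 46.6% of those of 15 to 50 kb and 59.2% of those of 50 to 100 kb, and was 46.7% above 300 kb. Of all genes with an IgG peak, 1285 had no NONO peak in any list. RefSeq promoter windows (GRCm38.p6, 300 bp around the start) were seldom met, 885 of 27025 (3.27%). Among genes with an IgG peak, windows met by one had a median GC content of 58.3% and windows not met 61.3%.

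Whether a NONO list also had a peak at the same place divided the IgG list unevenly. No NONO list met 21537 IgG peaks by 1 bp (38.5%), 16745 met 1 list, 11863 met 2, and 5801 met all 3 (10.4%). The 2 h list met 46.2% of IgG peaks, the 10 h list 35% and the fasted list 22.3%; the lists differ in length and covered bases in that order. Peaks met by none were small. Their median was 8.42 normalised tags (quartiles 5.79 and 14.7) over 2.9 scaled input tags in 500 bp, the smallest width the caller gives, and those met by all 3 had 23.7 (12.1 and 49.5) over 13.5 scaled input tags in 1255 bp. The quartile ranges overlap for each measure.

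Fold ran the other way. The median fold was 4.78 (interval 4.68 to 4.85) for peaks met by none and 3.33 (3.29 to 3.35) for peaks met by all 3. Input was low where fold was high: 6.46% of peaks met by none had no input tag at all, against 0.69% of those met by all 3, and a peak needs 8 IgG tags, so a peak with little input must have a high fold. Within peaks of exactly 500 bp the medians were 5.2 and 4.42, within 501 to 1000 bp 4.16 and 3.74, within 1001 to 2000 bp 3.35 and 3.29, and above that the order turned, with 2.8 and 2.94 within 2001 to 5000 bp. The order also turned, to 3.95 and 4.51, when only NONO peaks of at least 4-fold counted. Only 0.109% of IgG peaks then met all 3, and the interval of 4.51, 3.83 to 5.2, holds 3.95. At the places met by all 3, the overlapping NONO peaks with most tags had median folds of 2.37 (fasted), 2.6 (2 h) and 2.45 (10 h).

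**Figure D2:**
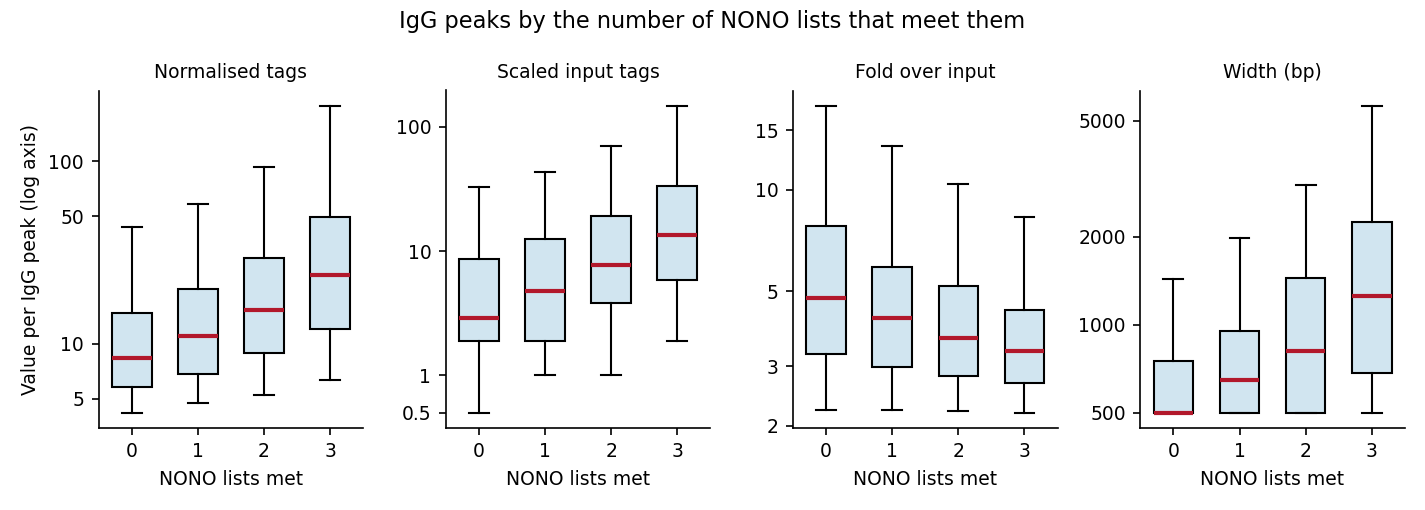
Normalised tags, scaled input tags, fold over input and width of IgG peaks met by 0, 1, 2 or 3 NONO lists, on log axes. Red lines are medians, boxes quartiles and whiskers the 5th and 95th percentiles of peaks; tags, input and width rise with the lists met (medians 8.42 to 23.7 normalised tags) and fold falls (4.78 to 3.33).

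The share met by none depended on input and width. It was 64.5% among peaks with no input tag, 53.9% at 1 to 2 input tags and 19.3% above 51, while the share met by all 3 went from 1.85% to 30.3%. By width it was 52.1% at 500 bp and 1.5% above 5000 bp, where 71.1% of 533 peaks met all 3. Peaks met by none were often near a NONO peak all the same: 41.7% lay within 1 kb of one and 84.5% within 10 kb. Of those inside a single protein-coding gene, 92.1% lay in a gene that carried a NONO peak elsewhere.

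Gene regions differed between these groups by a few percentage points. Exons and promoters together held 11.3% of peaks met by none (interval 10.9 to 11.8) and 6.88% of those met by all 3 (6.24 to 7.56). Promoters went from 7.55% to 4.55%, intergenic sites from 5.66% to 3.69%, 3′ untranslated regions from 1.36% to 0.638% and introns from 83% to 89.4%; non-coding exons stood at 0.84% and 0.81%, within each other's intervals. When a peak that touches an exon counted as exonic, the 2 values for exons and promoters were 20.6% and 19%. Host genes had a median length of 92.5 kb for peaks met by none and 133 kb for those met by all 3. The first 5 kb of the host gene held 10.2% and 4.58% of the peaks.

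**Figure D3:**
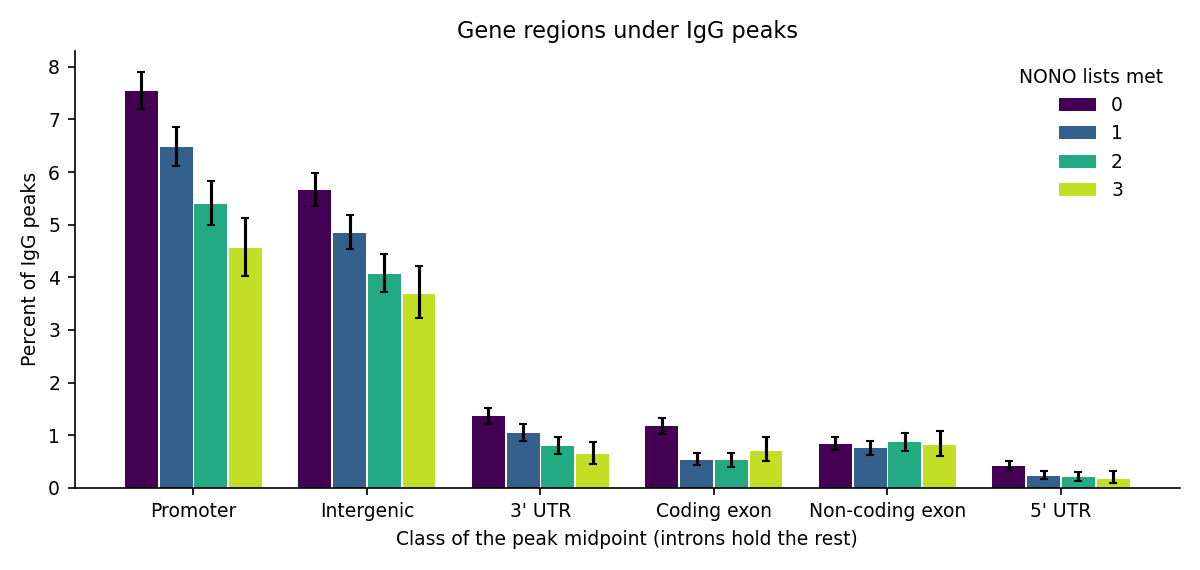
Percent of IgG peaks whose midpoint fell in each class other than intron, by number of NONO lists met, with 95% exact intervals from counting. Promoters fall from 7.55% with no list to 4.55% with 3, and non-coding exons stay near 0.8%.

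After Rn7sk, Rpph1, Rmrp, Zc3hav1 and Fggy, the 4 peaks met by none with most tags were 500 to 1092 bp wide and lay in genes of hepatocyte enzymes and secreted proteins. Tat, tyrosine aminotransferase, had 2944.9 normalised tags at 2.43-fold, Pck1, a gluconeogenic enzyme, 2924.9 at 2.05-fold, and Trf, the iron carrier transferrin, 2663.7 at 2.16-fold, the latter also over Gm20425. Alb, serum albumin, had 2510.6 at 2.04-fold and a further peak of 752.8 at 2.06-fold. Next came an intergenic peak (chr5:53992136-53992768, 1982.0 at 2.32-fold) and introns of Pnpla1 (1952.0 at 3.3-fold) and Nhsl1 (1355.0 at 2.03-fold), so the leading peaks were not all in hepatocyte genes. Lower in the order, Ass1, of the urea cycle, had a peak of 8317 bp with 914.9 at 2.03-fold and Fasn, fatty acid synthase, one of 803.9 at 2.75-fold; Ass1 had 8 of 8 and Fasn 6 of 7 IgG peaks met by none. Folds in Tat, Pck1, Trf, Alb and Ass1 were close to the limit of 2, and their input was high, 2334.4 scaled tags at the larger Alb peak. The peaks met by all 3 with most tags, beside Neat1 and the ribosomal RNA locus, were broad. They lay in introns of Nfia, at Ttc39c (2524.8 normalised tags with its midpoint in a promoter, and 2178.4 in an intron), across Mir30a and Mir30c-2 with an intergenic midpoint, and then in introns of Immp2l, Cdh2 and Ghr, the growth hormone receptor, where the IgG peak of 16330 bp had 1410.8 at 2.5-fold.

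Counted by gene, Sox5 had most IgG peaks, 213, and others with many were Dpyd (181), Prkg1 (164), Gm20388 (151), Zbtb20 (144), Fgfr2 (140), Ank3 (138), Immp2l (135), Ptprd (122), Psd3 and Ptprk (110 each), Plcb1 (106), Snd1 (105), and Magi1 and Reln (104 each). These genes are long, and the annotated bodies of Gm20388 and Fgfr2 overlap 188 and 51 other genes, which leaves their counts without a single source. Per kb, among genes of at least 20 kb, the leaders were shorter: Aldh2, an acetaldehyde-clearing enzyme, with 12 peaks (0.432 per kb), then Dram2, Tmem204, Safb, Dhx15, Prox1os, Ufl1, Plscr1, Chdh and Gm15261 (0.349 per kb).

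These many-peak genes split by whether NONO lists met them. Zbtb20, a repressor highly expressed in liver, had 4 of 144 IgG peaks met by none and 52 met by all 3, Immp2l 10 of 135, and Dpyd, which breaks down pyrimidines, 24 of 181. In contrast Prkg1, a cGMP-dependent kinase, had 134 of 164 met by none, Ank3 115 of 138, Reln, which encodes the secreted protein reelin, 98 of 104, Rbms3 79 of 86, Gm20388 89 of 151, Zfpm2 77 of 79, and Ntm all 102. Sox5 lay between, with 106 of 213. Over Ntm the NONO lists had 0 (fasted), 0 (2 h) and 1 (10 h) peaks, and over Reln 1, 4 and 8.

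Such genes were few. Of 614 protein-coding genes with 20 or more IgG peaks, the median share met by none was 24.6%. In 26 it was 80% or more, and in 11 it was complete; 9 of the 614 had no NONO peak in any list. Peaks over the 26 genes had a median of 4.8 scaled input tags and 4.16-fold, and peaks over the 221 genes with a share under 20% had 8.7 and 3.64-fold. The median gene length was 322 kb in the former and 152 kb in the latter.

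**Figure D4:**
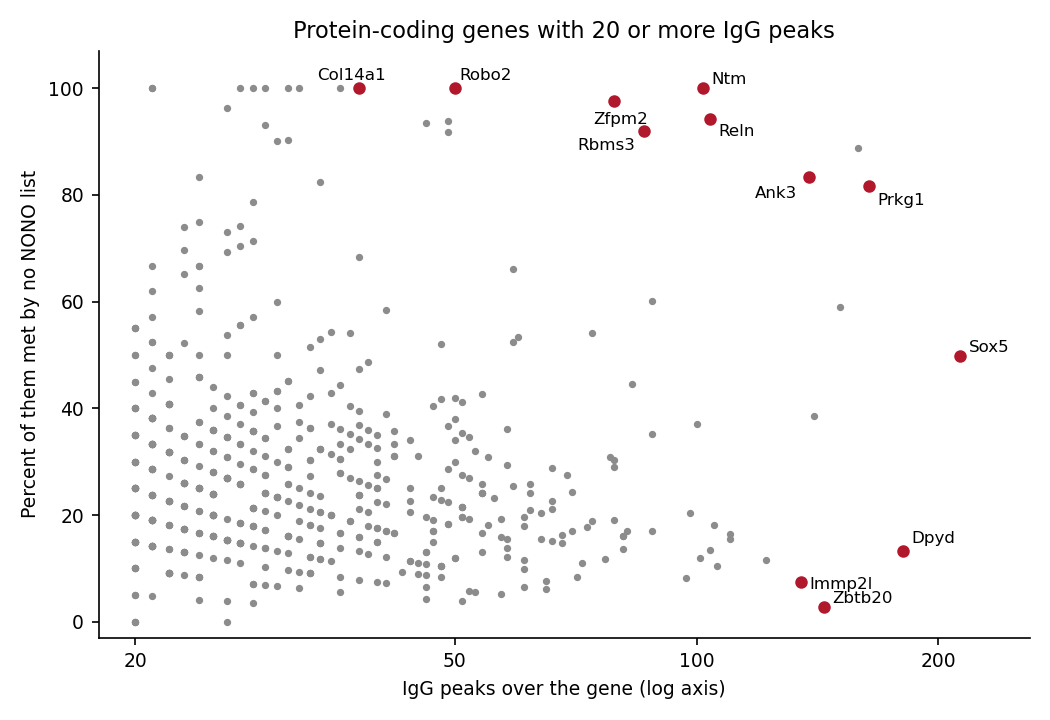
Each point is 1 of 614 protein-coding genes with 20 or more IgG peaks, with the number of IgG peaks (log axis) against the percent of them met by no NONO list. Most genes lie low (median 24.6%), and a separate band at the top holds Ntm, Reln, Zfpm2, Rbms3, Robo2 and Col14a1.

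Several genes of that band mark hepatic stellate cells and fibroblasts, the vitamin A-storing and matrix-producing cells of liver. Of 16 genes on the stellate cell and fibroblast list, 13 carried an IgG peak (81.2%, against 34.6% of protein-coding genes). No NONO list met 453 of their 588 IgG peaks (77%, against 38.5% of all IgG peaks). Sox5, Reln, Ntm and Rbms3 hold most of these peaks. The list was chosen with earlier results of these data known. Reln, Ntm, Rbms3 and Col14a1 are also genes of the band, so the 77% partly restates how the band was drawn. The smaller counts of defining markers lay the same way: Col14a1 38 of 38, Colec11 6 of 6, Pdgfrb and the collagen gene Col3a1 4 of 4 each, Lrat, which esterifies retinol for storage, 3 of 3, and Rgs5 3 of 3. Of these 6 genes only Colec11 had a NONO peak, 1 at 2 h. Hgf (2 of 13 met by none) and Dcn (7 of 11) differed from them, with NONO peaks in all 3 lists. Median input was low in Rgs5 (1 scaled tag), Col3a1 (1.45) and Pdgfrb (1.9) and higher in Lrat (17.3). Among all IgG peaks with 1 to 2 input tags 53.9% were met by none, so the counts in the first 3 genes carry little weight. Col1a1, Des and Lama2 had neither an IgG peak nor a NONO peak. Fewer cells of a type and less RNA per cell cannot be told apart in such libraries, and whether the IgG nuclei held more of these cells than the NONO nuclei was not tested.

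Markers of other non-parenchymal cells held fewer IgG peaks in all than the stellate list. Lymphocyte and erythroid genes had 1 of 17 with one (5.88%), the heme synthesis gene Alas2. That share was below the 34.6% of protein-coding genes and below the 23.8% of all genes, which include small RNA genes. The share of Kupffer and myeloid genes was below the former value only. Of 16 Kupffer and myeloid genes 4 had one (25%), with 8 of 11 peaks met by none, mostly over Ptprc (6 of 7). Of 10 cholangiocyte genes 4 did (40%), with 8 of 12 met by none. Liver endothelium had 9 of 16 genes with a peak (56.2%) and 23 of 54 peaks met by none (42.6%, near the 38.5% of all IgG peaks), led by the scavenger receptor gene Stab2 (9 of 22). Of 9 Fc receptor genes, whose proteins bind immunoglobulins, 3 had IgG peaks (33.3%, near the 34.6% of protein-coding genes). Pigr had 4, Fcgrt 2 and Fcgr2b 1, at most 39 normalised tags each. The long neuronal-type genes had 7 of 20 with a peak (35%, near the 34.6% of protein-coding genes). They differed among themselves: Robo2 had 50 of 50 peaks met by none, Ptprd 14 of 122 and Erbb4 16 of 62.

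Hepatocyte gene groups carried IgG peaks in most members, against 34.6% of all protein-coding genes. In fatty acid and glucose metabolism 23 of 24 genes had one (28.7% of 289 peaks met by none), led by Acaca with 68, in urea cycle and amino acid breakdown 18 of 20 (27.6% of 319), in xenobiotic and bile acid metabolism 19 of 22 (39.6% of 187), led by Cyp7b1 with 31, and in the secreted proteins 17 of 28 (53.1% of 64), led by Plg with 10. The value for urea cycle and amino acid breakdown rests on Dpyd, a pyrimidine gene with 181 of the peaks: without it 64 of 138 (46.4%) were met by none, above rather than below the 38.5% of all IgG peaks. The secreted proteins had a median fold of 2.23 over 85.6 scaled input tags, and the 18 clock genes of 22 with a peak had 4.42 over 4.8. In the clock list 43.8% of 192 peaks were met by none, most of them in Rora (53 of 88), and without Rora 31 of 104 were (29.8%), while Clock had 1 of 18.

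Genes of the proteins that work with 7SK and NONO were met unevenly. The 7SK ribonucleoprotein list had 7 of 12 genes with a peak, Rn7sk itself included (58.3%, against 23.8% of all genes). The elongation genes Aff1 (22 peaks), Aff4 (12) and Ccnt2 (7) had several, whereas Larp7, Mepce and Hexim1, whose proteins bind 7SK, and Cdk9, the kinase of P-TEFb, had none. Of 28 genes of paraspeckle and nuclear RNA-binding proteins 25 had one (89.3%, against 34.6% of protein-coding genes). Of their 109 peaks 31 were met by none (28.4%, against 38.5% of all IgG peaks). Nono itself had 2 IgG peaks (24.2 normalised tags at 2.66-fold and 10 at 2.82-fold), Sfpq 2 (37.9 at 2.20-fold and 15.8 at 2.60-fold), and Pspc1 9, none of them free of a NONO peak.

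**Figure D5:**
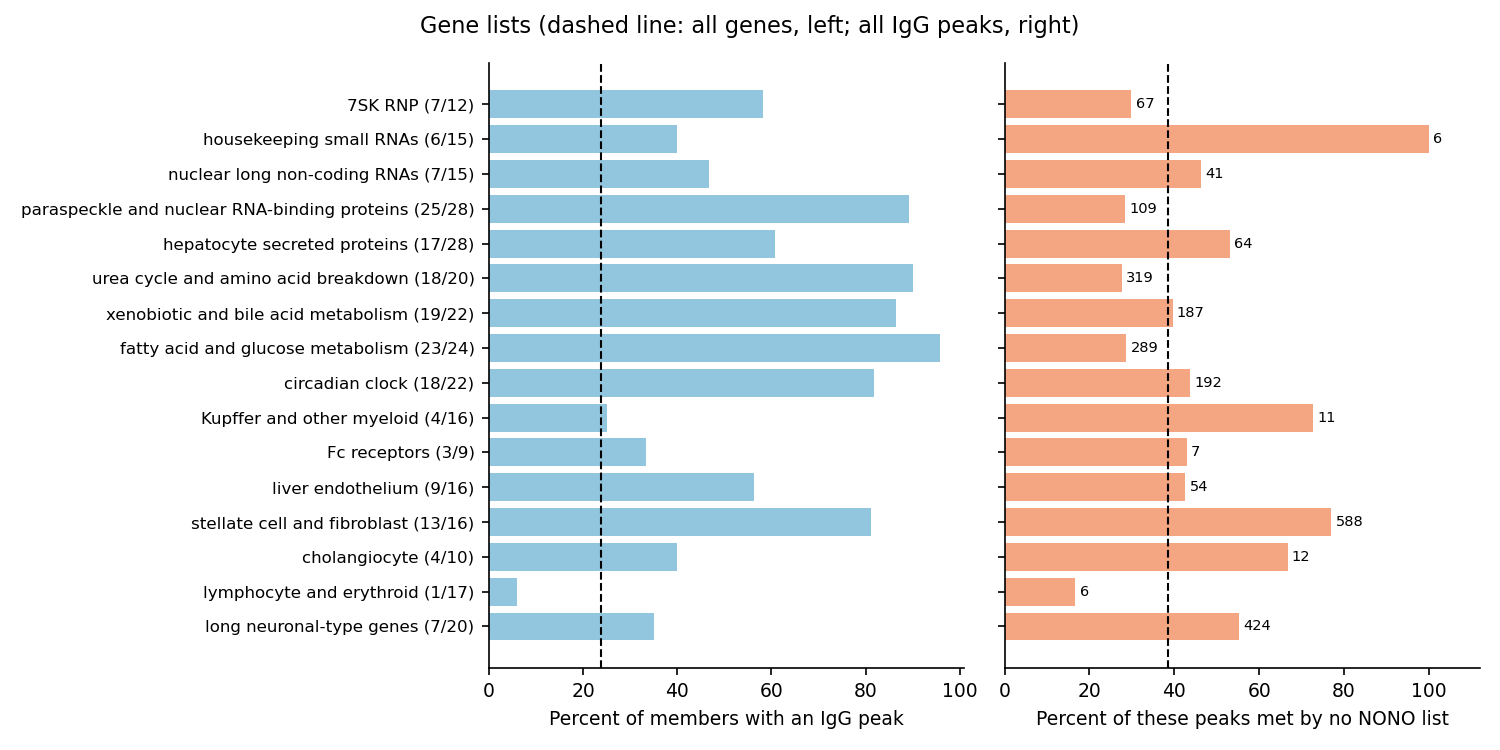
Left, percent of each list's matched genes with an IgG peak (numbers in parentheses), with 23.8% of all genes as the dashed line; right, percent of the list's IgG peaks met by no NONO list, with 38.5% of all IgG peaks as the dashed line and the number of peaks at each bar. The left line covers all gene types. For lists of protein-coding genes the share to compare is the 34.6% of protein-coding genes, which is not drawn. The stellate cell and fibroblast list stands at 77% of 588 peaks, and bars on 12 peaks or fewer rest on little.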

How the data were processed

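RNA immunoprecipitates and inputs from liver nuclei were sequenced by the authors. The submitters' processing notes list HOMER, STAR 2.4.0k and FastQC 0.11.2, and mm10 as the build. Peaks are the authors' HOMER calls, per the file headers in 500 bp windows joined within 1000 bp, both strands together, at 2-fold or more over input. The deposited signal is tags per 10000000 library tags, the deposited counts are IgG tags per peak, and the deposited input tags are scaled to the IgG total, so that 1 input tag is worth 0.962 and none is written 0.5. From these comes the authors' ratio, the deposited fold. HOMER's deposited score ranked NONO peaks for lists of equal length, and the deposited p-value was not used. The IgG library held 18995778 tags.

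Peaks were laid on GENCODE M21. Classes go by midpoint, in the order coding exon, 3′ and 5′ untranslated region, non-coding exon, promoter, intron. A peak counts for every gene it overlaps by 1 bp. Transcripts were aligned locally (match 1, mismatch -1, gap open -2, extension -0.5). Named are the 12 IgG peaks with most tags, the 8 of highest fold with at least 2 input tags, the 15 genes with most peaks, the 10 with most per kb, the leading 8 peaks met by no and by all 3 NONO lists, the 8 genes with most peaks met by none, up to 4 members per gene list and a few fixed RNAs; other names were chosen after values were seen, and some genes the rule names are left out of the text. The members, the 16 lists and the alternatives were chosen with earlier results of these data known. Overlap, distance, interval and alignment functions were tested on simulated data. Python 3.11.15, numpy 2.4.6, pandas 2.3.3, scipy 1.17.1 and biopython 1.88 were used.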

Additional observations from a re-analysis of the deposited data

How the results depend on the processing

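No paired analysis was possible because only 1 library stands for each group. Sequence features of whole peaks were not run, since no genome sequence was used here. Depth limits the small peaks most. At 4-fold or more the list kept 28659 peaks with 3.52% of library tags, 88.5% in introns, 46.3% met by none and 6.41% by all 3, with median folds of 6.24 and 5.2, median scaled inputs of 1.9 and 3.8, and 9.02% and 4.25% in exons or promoters. At 11 tags or more the tag share was 52.9%, introns 85.3%, met by none 35.3%, by all 3 11.5%, folds 4.16 and 3.28, input of peaks met by none 4.8 and their exon or promoter share 12.1%. With at least 2 input tags these were 52.8%, 85.2%, 34.9%, 11.7%, 4.01 and 3.27, 4.8 and 12.4%. Without Rn7sk the tag share was 15.7%.

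With an overlap of 50% of the IgG peak, 55.6% were met by none and 2.88% by all 3, with folds of 4.37 and 3.56, inputs of 3.8 and 7.7, and 10.4% and 8.5% in exons or promoters. With NONO lists of equal length the shares were 45.7% and 8.66%, the fold and input of peaks met by all 3 were 3.19 and 16.4, and 10.8% of peaks met by none lay in exons or promoters. With NONO peaks of at least 4-fold the shares were 89.2% and 0.109%, folds 3.95 and 4.51, inputs 5.8 in both, and 9.56% of peaks met by none lay in exons or promoters. With classes by any overlap introns fell to 76.5% of peaks, and exons or promoters held 20.6% of peaks met by none and 19% of those met by all 3. Fold was higher and input lower in peaks met by none in 6 of 7 settings (the main one included), the exception being NONO peaks of at least 4-fold. Their exon or promoter share was higher in all 7. With NONO peaks of at least 4-fold it was 9.56% against 6.56%, and the interval of the latter, 1.82 to 15.9, holds the former.

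Alternatives chosen after seeing the data were other identity limits for 7SK copies, with an IgG peak over 15.2% to 64.7% of them, the urea cycle and amino acid breakdown list without Dpyd, with 46.4% of peaks met by none, and the clock list without Rora, with 29.8%.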
